A study of Ovis aries with 3 samples.

Results

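The miRNAs miR-192, miR-194, and miR-215 were followed in small RNA libraries from 3 intestinal segments of sheep. In the table of 822 miRNA rows, they were held by 4 rows, which were matched by name and mature sequence. The known sheep row oar-miR-194 held the 22-nt miR-194, and the predicted row novel_mir_175 held the same sequence with 1 more base. The predicted row novel_mir_174 was identical in sequence to bovine miR-215, and novel_mir_245 lay within the sequence of bovine miR-192. Each row was described alone, and both miR-194 rows were also added up.

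Duodenum (DU), cecum (CE), and colon (CO) of Small tailed Han sheep were each sampled with 1 library. The labels give the tissue as mucosal epithelium of the intestine, and no treatment or genetic change was part of the design. RNA of 3 ewes, 11 months old, was pooled for every library, and the segments shared these animals. There was no replicate, no value has an error between animals, and every test compared libraries and not segments.

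In mammals, miR-194 is made from a pair of loci, of which one lies beside miR-215 and the other beside miR-192. miR-192 and miR-215 share their seed, the bases near the 5' end by which a miRNA recognizes its targets, whereas miR-194 has a different one. All 3 miRNAs are known for their abundance in the epithelium of the intestine, where HNF transcription factors and p53 are known regulators of their genes.

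The sequences are shown because the rows of each pair differ by only a few bases, and the counts below depend on these differences. Capitals mark the seed, bases 2 to 8 counted from the 5' end.
oar-miR-194: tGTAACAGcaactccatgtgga
novel_mir_175: tGTAACAGcaactccatgtggac
novel_mir_174: aTGACCTAtgaattgacagaca
novel_mir_245: cTGACCTAtgaattgacagcc
The 2 miR-194 rows had 22 of 22 positions in common, and the 23-nt row ended in an added C. The miR-215 row and the miR-192 row had 19 of 21 positions in common, with the substitutions A1C and A20C, in which the base of novel_mir_174 stands first and positions count from the 5' end. Their longest shared run was the 18 bases from position 2 to position 19. The seed GTAACAG occurred in 2 rows of the table and the seed TGACCTA also in 2 rows, so no other row carried either seed. Per the methods, predicted rows were built from reads left after the known sheep miRNAs had been annotated. A read was taken as known when it aligned to a precursor without mismatch. It also had to match at least 16 bases of the mature miRNA, with shifted ends allowed. A read of the 23-nt form contains the whole 22-nt sequence, so by this rule its assignment depended on whether it fitted a known precursor. Whether the reads of novel_mir_175 fitted the precursor of oar-miR-194 was not tested. How reads were divided between both predicted rows of miR-192 and miR-215 is not given in the sources used here.

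Summed over all rows, the depth was 14462675 counted reads in DU, 15072945 in CE, and 13769740 in CO. Normalized reads are counts per 1000000 reads mapped to the genome in that library. The smallest count above 0 in the predicted rows was 5 reads. oar-miR-143, a miRNA of smooth muscle and mesenchyme, held 31.9%, 48.4%, and 48.0% of the counted reads in DU, CE, and CO, respectively. Intervals below are 95% intervals that cover counting error only, from the exact binomial split for ratios and by the Wilson method for shares of counted reads.

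The 4 rows together held 2195661 reads in DU, 572477 in CE, and 190809 in CO. This was 15.2% of the counted reads in DU, 3.80% in CE, and 1.39% in CO, where the miR-192 row was listed at 0.

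oar-miR-194, the 22-nt miR-194 and a miRNA of enterocytes and liver cells, had 153314 reads in DU, 73223 in CE, and 100577 in CO. As normalized reads, this was 9162 in DU, 4306 in CE, and 6071 in CO. Its share of the counted reads was 1.06% (1.05 to 1.07) in DU, 0.486% (0.482 to 0.489) in CE, and 0.730% (0.726 to 0.735) in CO. Thus the DU library was highest and the CE library lowest, and the row ranked 13 by its reads in DU, 24 in CE, and 18 in CO.

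novel_mir_175, the 23-nt form, had 147296 reads in DU, 1297 in CE, and 10208 in CO, or 8802, 76.3, and 616 normalized reads. The level in DU was close to that of the 22-nt row, but the order below it was spread much further. Its share of the counted reads was 1.02% (1.01 to 1.02) in DU, 0.00860% (0.00815 to 0.00909) in CE, and 0.0741% (0.0727 to 0.0756) in CO. The row ranked 14 in DU, 99 in CE, and 56 in CO.

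When both miR-194 rows were added up, miR-194 had 300610 reads in DU, 74520 in CE, and 110785 in CO, or 17964, 4382, and 6687 normalized reads. DU was highest again and CE lowest. The sum in CE and CO was close to the 22-nt row alone, since the 23-nt row added little there.

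novel_mir_174, the row of miR-215, had 927737 reads in DU, 7390 in CE, and 80024 in CO. As normalized reads, this was 55441 in DU, 435 in CE, and 4830 in CO. miR-215 was among the most abundant miRNAs of the DU library, with rank 4, and had rank 63 in CE and rank 21 in CO. Its share of the counted reads was 6.41% (6.40 to 6.43) in DU, 0.0490% (0.0479 to 0.0502) in CE, and 0.581% (0.577 to 0.585) in CO.

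novel_mir_245, the row of miR-192, had 967314 reads in DU and 490567 in CE, or 57806 and 28848 normalized reads, and was listed at 0 in CO. It ranked 3 in DU and 4 in CE. Its share of the counted reads was 6.69% (6.68 to 6.70) in DU and 3.25% (3.25 to 3.26) in CE.

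The 0 of novel_mir_245 in CO cannot be read as absence of miR-192 from the colon, and no fold is given for it. The study's own list of conserved miRNAs holds miR-192 in the colon library. Among the 676 predicted rows, 14 had at least 1000 reads in one library and were listed at 0 in another, in 21 such pairs of a row and a library. In 11 of these 21 pairs, another row whose sequence contained or was contained in that of the first had reads in the library listed at 0. For novel_mir_245 in CO no such row had reads, and the only row with reads that shared at least 16 bases was the miR-215 row, with 80024 reads. Only 182 predicted rows had reads in all 3 libraries. The table therefore gives the order of DU and CE for miR-192, and no position for CO.

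**Figure D1:**
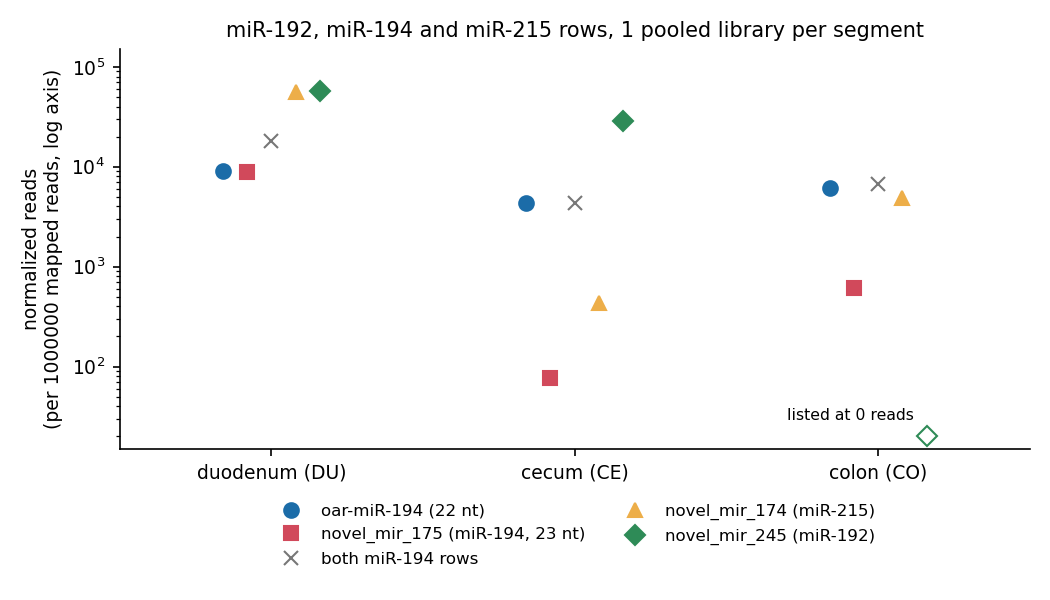
Normalized reads (counts per 1000000 mapped reads, log axis) of the 4 rows and of the summed miR-194 rows in the DU, CE, and CO libraries, with 1 point per library. The points of novel_mir_175 and novel_mir_174 lie far lower in CE, at 76.3 and 435, than in DU, at 8802 and 55441. The open diamond marks novel_mir_245 in CO, which is listed at 0 and drawn at the foot of the axis.

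All 4 rows were lower in the CE library than in the DU library by the Audic-Claverie test, which compares the read counts of a pair of libraries exactly. A row was called at a Bonferroni-adjusted p below 0.01 and a fold of at least 2. In this comparison, 24.4% of the 348 rows tested were called lower in CE, and 11.8% of the 262 tested rows that had 10 reads or more in each library. The median log2 ratio over all tested rows was -0.31. The calls of the 4 rows were of very unequal size.

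miR-215 had the lowest ratio. The log2 ratio of novel_mir_174 in CE to DU was -7.00 (-7.03 to -6.96), a 128-fold difference. For novel_mir_175 it was -6.85 (-6.93 to -6.77), a 115-fold difference. Among the 207 rows with reads in both libraries and at least 100 in total, novel_mir_174 and novel_mir_175 had the lowest and the next lowest ratio.

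The other 2 rows lay just past the fold threshold. The log2 ratio of oar-miR-194 was -1.09 (-1.10 to -1.08), a 2.13-fold difference, and it ranked 22 of 207 from the lowest. That of novel_mir_245 was -1.003 (-1.008 to -0.998), a 2.004-fold difference, and it ranked 26. Both calls were lost with some other library sizes and kept with the sum of counts, since small shifts of the scale move these ratios across the threshold. With TMM factors from edgeR, the log2 ratio was -0.96 for oar-miR-194 and -0.88 for novel_mir_245. The summed miR-194 rows were called lower, with a log2 ratio of -2.04 (-2.05 to -2.02), or 4.10-fold.

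In the comparison of CO with DU, novel_mir_175 and novel_mir_174 were called lower in CO and oar-miR-194 was not called. Here 20.1% of the 363 rows tested were called lower in CO, and 8.24% of the 267 tested rows that had 10 reads or more in each, and the median log2 ratio was -0.19. novel_mir_175 had a log2 ratio of -3.84 (-3.87 to -3.81), a 14.3-fold difference. novel_mir_174 had a log2 ratio of -3.52 (-3.53 to -3.51), an 11.5-fold difference. These were the ratios next to the lowest among the 215 rows with reads in all 3 libraries and at least 100 reads in total, with rank 2 for novel_mir_175 and rank 3 for novel_mir_174.

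For oar-miR-194 the log2 ratio of CO to DU was -0.59 (-0.61 to -0.58), or 1.51-fold, so the libraries differed beyond counting error but by less than the fold required for a call. It ranked 44 of 215. The summed miR-194 rows were called lower in CO, at -1.43 (-1.44 to -1.42), or 2.69-fold.

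In the comparison of CE with CO, the same pair of rows, novel_mir_175 and novel_mir_174, was called lower in CE. Of the 326 rows tested, 12.9% were called lower in CE, and 3.47% of the 259 that had 10 reads or more in each, and the median log2 ratio was -0.06. The log2 ratio of CE to CO was -3.01 (-3.10 to -2.93) for novel_mir_175, an 8.08-fold difference. For novel_mir_174 it was -3.47 (-3.51 to -3.44), an 11.1-fold difference.

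oar-miR-194 was not called between CE and CO, with a log2 ratio of -0.50 (-0.51 to -0.48), or 1.41-fold, and the summed rows were not called either, at -0.61 (-0.62 to -0.60), or 1.53-fold. Per read of the miR-200 family, which marks epithelium, the sign of both turned, to 0.16 for oar-miR-194 and 0.044 for the sum. The 3 comparisons share libraries in pairs, so they are not independent of each other.

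**Figure D2:**
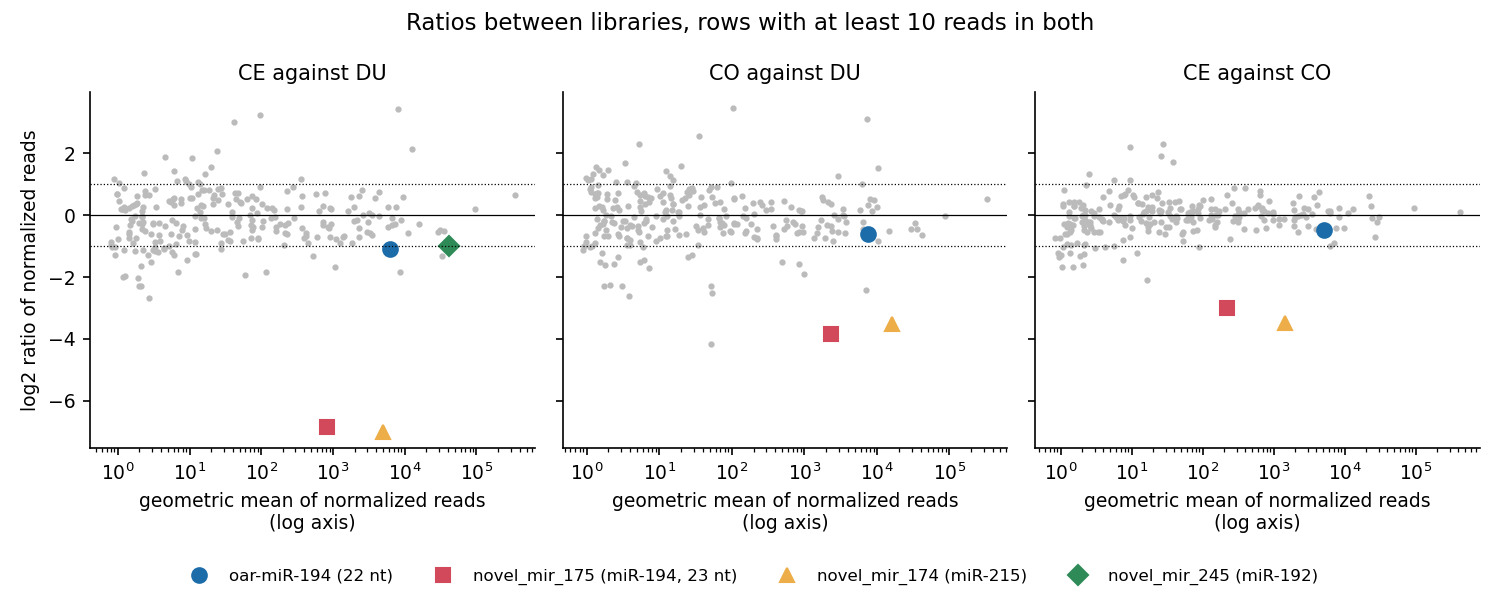
Log2 ratio of normalized reads against the geometric mean of the normalized reads (log axis) for each pair of libraries, over rows with at least 10 reads in both. Grey points are other rows, colored symbols are the miR-192, miR-194, and miR-215 rows, and dotted lines mark a fold of 2. novel_mir_174 and novel_mir_175 stand below the cloud of other rows in CE against DU, at -7.00 and -6.85, and oar-miR-194 stands inside it in all 3 panels.

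Ratios of reads within a library do not depend on the library size. For each 100 reads of oar-miR-194 there were 96.1 (95.4 to 96.8) reads of the 23-nt row in DU, 1.77 (1.68 to 1.87) in CE, and 10.1 (9.94 to 10.4) in CO. The 23-nt row thus made up 49.0% (48.8 to 49.2, exact interval) of the miR-194 reads in DU, 1.74% (1.65 to 1.84) in CE, and 9.21% (9.04 to 9.39) in CO. These intervals did not overlap between any of the libraries.

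The miR-215 row and the miR-192 row had a split of nearly the same size. For each 100 reads of novel_mir_245 there were 95.9 (95.6 to 96.2) reads of novel_mir_174 in DU and 1.51 (1.47 to 1.54) in CE. The miR-215 row made up 49.0% (48.9 to 49.0, exact interval) of the reads of both rows in DU and 1.48% (1.45 to 1.52) in CE. In CO no such ratio can be given, with novel_mir_245 listed at 0.

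Across the pairs, the ratios were much more even. For each 100 reads of novel_mir_174, the miR-215 row, there were 15.88 (15.79 to 15.96) reads of novel_mir_175 in DU, 17.55 (16.53 to 18.62) in CE, and 12.76 (12.49 to 13.02) in CO. The highest and the lowest of these 3 ratios differed 1.38-fold, and their intervals did not overlap. For each 100 reads of novel_mir_245, the miR-192 row, there were 15.85 (15.76 to 15.94) reads of oar-miR-194 in DU and 14.93 (14.81 to 15.04) in CE, a 1.06-fold difference.

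With the partners exchanged, the ratios ran far apart. There were 16.5 reads of oar-miR-194 for each 100 of novel_mir_174 in DU, 990.8 in CE, and 125.7 in CO, a 60.0-fold range. For each 100 reads of novel_mir_245, novel_mir_175 had 15.2 reads in DU and 0.264 in CE, a 57.6-fold range. In these libraries the 23-nt miR-194 row therefore varied with the miR-215 row, and the 22-nt row with the miR-192 row in the 2 libraries where the latter had reads. This is a description of 3 libraries, or of 2 for miR-192. Whether reads of the 22-nt row came from one locus and reads of the 23-nt row from the other was not tested.

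**Figure D3:**
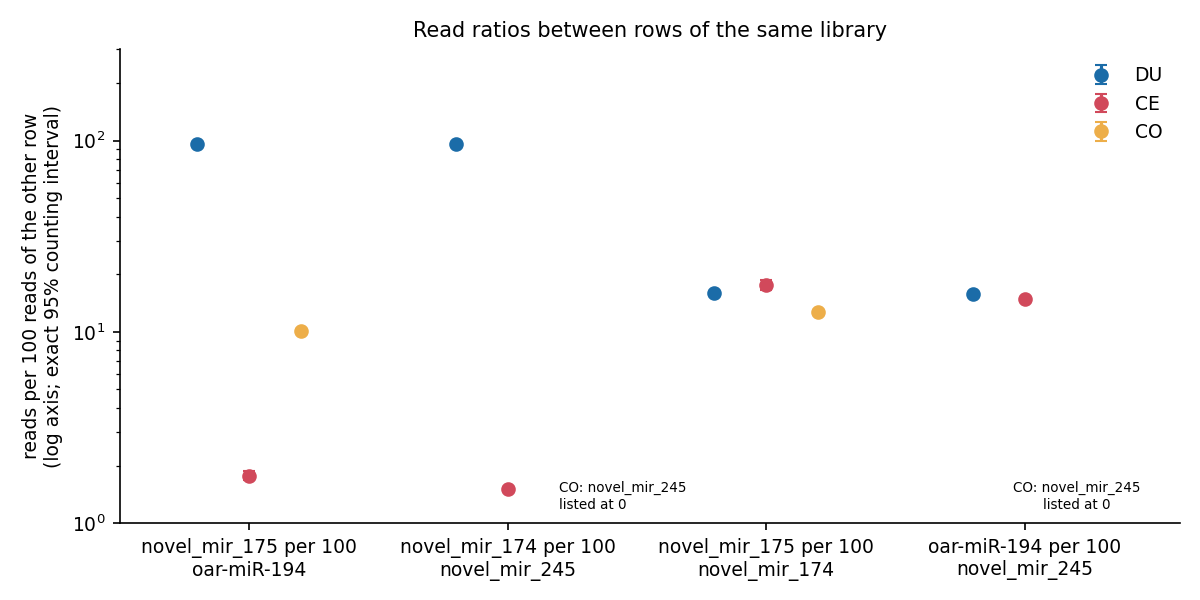
Reads of one row per 100 reads of another row of the same library (log axis), with exact 95% counting intervals, mostly smaller than the symbols. The first pair of groups runs from 96.1 down to 1.77 and from 95.9 down to 1.51 between libraries, and the other groups stay between 12.8 and 17.6. CO has no point where novel_mir_245 is the second row.

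For the 3 rows with reads in all libraries and for the summed miR-194 rows, the most alike row was sought over the log2 ratios of CE to DU and of CO to DU, among the 215 rows with reads in all 3 libraries and at least 100 reads in total. novel_mir_245, listed at 0 in CO, is not among them. The nearest row to novel_mir_175 was novel_mir_174, at a distance of 0.35 on the log2 scale, and the reverse also held. The next nearest row, novel_mir_46, lay at 4.44 from novel_mir_175 and at 4.48 from novel_mir_174, with 114 reads in DU, 18 in CE, and 23 in CO. novel_mir_167 followed, at 4.83 and 4.87.

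oar-miR-194 had near neighbors of various abundance. The nearest was novel_mir_306, at 0.06, with 51 reads in CE and 73 in CO. novel_mir_145 lay at 0.15. oar-miR-150, a miRNA of lymphocytes, lay at 0.19, with 4837, 2532, and 2896 reads. For the summed miR-194 rows, the nearest were novel_mir_243 at 0.26, novel_mir_231 at 0.35, and novel_mir_157 at 0.59. The last of these is a row of miR-142, a miRNA of blood cells. These distances rest on 3 libraries and on ratios that share the DU library.

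Further rows were related to the 4 by sequence. Among the predicted rows, 2 were the reverse complement of miR-194 over 20 bases, novel_mir_168 with 39 reads in DU and 0 in CE and CO, and novel_mir_353 with 15 reads in CE, 34 in CO, and 0 in DU. The sequence of novel_mir_168 lies wholly within that of novel_mir_353. novel_mir_469 shared 20 bases with the miR-192 row and was listed at 0 in all 3 libraries. No row shared a run of at least 16 bases with the opposite arms looked for, chi-miR-192-3p, hsa-miR-194-3p, and oan-miR-215-3p. These are named for goat, human, and platypus. An opposite arm of sheep that differs from them was not looked for, so its absence is not shown.

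The hairpins listed for the antisense rows are shown because they hold the 23-nt miR-194 sequence on their other strand. Of the 76-nt hairpin of novel_mir_168, the opposite strand reads as follows, with the 23-nt sequence in capitals.
novel_mir_168 hairpin, opposite strand: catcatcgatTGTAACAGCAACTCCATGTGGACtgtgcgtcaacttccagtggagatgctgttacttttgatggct
The 23-nt sequence ran from position 11 to position 33, and the base after the first 22 was C, as in novel_mir_175. The 82-nt hairpin of novel_mir_353 held it from position 13 to position 35. The hairpins of the other loci were not analysed here. The gene table of the ARS-UI_Ramb_v3.0 assembly has 1 gene named MIR194, which lies within the span of EHD1 and next to ATG2A. It has no gene named MIR192 or MIR215. This is not the assembly that the reads were mapped to, and no position is given from it.

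The miR-200 family, miRNAs of epithelial cells, served as a check of the labelled tissue. Its 7 rows with reads had 28937 normalized reads in DU, 24747 in CE, and 38944 in CO, so it was highest in CO and the members were highest in DU. In bulk RNA of a tissue, fewer cells of a type and less of the RNA per cell cannot be told apart. For each 100 reads of the family, the miR-215 row had 191.6 reads in DU, 1.76 in CE, and 12.4 in CO, and novel_mir_175 had 30.4, 0.308, and 1.58. The same count for oar-miR-194 was 31.7 in DU, 17.4 in CE, and 15.6 in CO, and for novel_mir_245 it was 200 in DU and 117 in CE.

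Of the 9 epithelial miRNAs listed, 6 had reads, and miR-203, miR-205, and miR-375 had no row with reads. With the rows of each miRNA added up, 1 of 6 was called lower in CE than in DU, against 24.4% of all rows tested, and 0 higher. The median log2 ratio of the list was -0.36. In CO against DU, 1 of 6 was called lower, against 20.1% of all rows tested, with a list median of 0.32. The called miRNA was miR-31 in both comparisons, with 981 reads in DU, 12 in CE, and 10 in CO. These reads came from separate predicted rows, novel_mir_404 in DU, novel_mir_324 in CE, and novel_mir_499 in CO. Each of these rows was listed at 0 in the other libraries, so the difference was not measured on the same row. miR-141, of the miR-200 family, was the 1 of 5 called lower in CE than in CO, against 12.9% of all rows tested.

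Smooth muscle and mesenchyme were represented by 5 of 6 listed miRNAs, and their sum was 281430 normalized reads in DU, 435101 in CE, and 403982 in CO, nearly all from oar-miR-143. Of these 5, 1 was called higher in CE than in DU, where 42 of the 348 rows tested were. This was oar-miR-133, a miRNA of muscle, with 3946 reads in DU and 9086 in CE. None was called between CO and DU or between CE and CO. The medians were 0.27 for CE to DU, 0.30 for CO to DU, and 0.10 for CE to CO.

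Lymphoid and myeloid cells were represented by 4 of 5 listed miRNAs, and their sum was 3834 normalized reads in DU, 1912 in CE, and 1942 in CO. Of the 4, only miR-142 was called, lower in CE and in CO than in DU, at 31558, 9975, and 8356 reads. Of all rows tested, 24.4% were called lower in CE than in DU and 20.1% lower in CO than in DU. The medians were -0.93, -0.59, and -0.09 in the 3 comparisons. Blood and endothelium were represented by 2 of 4 listed miRNAs, with 41.6, 38.8, and 28.7 normalized reads, while miR-451 and miR-126 had no row with reads. miR-144, a miRNA of red blood cells, had 27 reads in DU and 0 in CE and CO. It was the 1 of 2 called lower in CE and in CO than in DU, against the 24.4% and 20.1% of all rows tested. Both calls rested on the 0 of a single predicted row, novel_mir_637. The part of these other cell types in the differences of miR-192, miR-194, and miR-215 was not tested.

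Other miRNAs that p53 is known to induce had medians near 0 where they had enough reads to be tested. Of 8 listed miRNAs, 6 had reads, and miR-34c and miR-15a had no row with reads. miR-34a was not tested, with 8 reads in DU, 0 in CE, and 9 in CO. The 5 tested in each comparison had medians of 0.02 for CE to DU, -0.01 for CO to DU, and 0.02 for CE to CO. The 1 called in each was miR-34b, with 0 reads in DU, 156 in CE, and 74 in CO. It was called higher in CE than in DU, in CO than in DU, and in CE than in CO. The calls against DU rested on predicted rows listed at 0 in DU, novel_mir_201 and novel_mir_531, and such a 0 cannot be read as absence. Of all rows tested, 42 of 348, 50 of 363, and 32 of 326 were called higher in these comparisons. The level of miR-16 was 820, 655, and 671 normalized reads, and that of miR-107 was 49.8, 42.6, and 45.7. This list shares miR-143 and miR-145 with the smooth muscle list. Regulation of the 4 rows by p53 was not tested.

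Liver and gut miRNAs were listed with 3 members, and all 3 were called lower in CE than in DU, where 24.4% of all rows tested were. The call of miR-802 rested on 0 reads in CE, and 74 of the 127 rows called in that comparison had 0 reads in one of its libraries. miR-148a, an abundant miRNA of liver and gut, had 886563 reads in DU, 357853 in CE, and 564592 in CO, and its log2 ratio was -1.33 for CE to DU and -0.64 for CO to DU, the latter not called. miR-122, the main miRNA of hepatocytes, had 2170, 281, and 372 reads over 2 rows, with log2 ratios of -2.97 and -2.53, both called. miR-802 had 600 reads in DU and was listed at 0 in CE and CO. With 3 members, the list medians were the values of miR-122, -2.97 for CE to DU and -2.53 for CO to DU. Over all rows tested, the medians were -0.31 and -0.19. The list was chosen with earlier results of these data known, so its medians and calls are a description and no independent test. None of the 2 miRNAs tested between CE and CO was called, with a median of -0.57.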

How the data were processed

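Small RNA was sequenced in 3 pooled libraries, 1 per segment. Per the methods, the authors removed low-quality, adapter, and short reads, mapped clean reads to Oar_v4.0 with SOAP, found known miRNAs by BLAST in miRBase 21.0, and used miReap for predicted ones. The submitters' processing notes also name Bowtie. The authors deposited raw read counts without normalization. How predicted rows were merged over libraries is not given in the sources used here.

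Counts were divided by the reads mapped to the genome, per 1000000. A row entered a comparison when it had 1 normalized read or more in either library, by the Audic-Claverie test (doubled smaller tail, Bonferroni below 0.01, fold of at least 2), and 0 was replaced by 0.01 in ratios. The code was tested on simulated data. With 1 library per segment, no spread between animals can be estimated. The counted reads, 13769740 to 15072945 per library, limit only counting error.

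The rows described were the 4 members, their sum for miR-194, and rows related by sequence. Members and lists were chosen with earlier results of these data known. Known rows were matched to lists by name and predicted rows by a shared run of at least 16 bases with the mature sequences in the study's supplementary lists. Library sizes from edgeR 4.0.16 and DESeq2 1.42.0, the edgeR exact test, filters, and row merging were tried as alternatives, 13 in all. Target predictions and qRT-PCR were not analysed here.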

Additional observations from a re-analysis of the deposited data

Results flagged for a closer look

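Reads were present in 2 predicted rows that run antisense to miR-194, which are no part of the 4 rows described. novel_mir_168 had 39 reads in DU. novel_mir_353 had 15 reads in CE and 34 in CO. They drew attention because these counts exceed the 3 reads taken as the smallest visible number. The smallest count above 0 in the predicted rows was 5 reads, so any predicted row with reads exceeds that number. Both rows were among those tested over the whole table. The shorter row had reads in DU alone and the longer row in CE and CO alone. The sequence of the shorter row lies wholly within that of the longer row. A count of 0 in one of them therefore cannot be read as absence of antisense reads from a segment.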

How the results depend on the processing

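Of the log2 ratios recomputed under the alternatives, 161 kept their direction and their side of the threshold, 19 lost the call, 2 gained one, and 2 changed sign. The 161 include novel_mir_245 in CO against DU and in CE against CO, where the 0 in CO was replaced, so these say nothing about stability. The filters, the adjustment, and the edgeR exact test left the ratio itself unchanged, so only the call could change there. miR-215 stayed lower in CE than in DU under every alternative, between -7.03 and -6.63. With other library sizes, novel_mir_245 in CE against DU was no longer called, at -0.93 with clean reads, -0.88 with TMM, -0.91 with DESeq2 size factors, -0.64 with counts without oar-miR-143, and -0.78 per miR-200 read. oar-miR-194 in CE against DU was not called at -0.96 with TMM, -0.99 with DESeq2 size factors, or -0.72 without oar-miR-143. Per miR-200 read, oar-miR-194 was not called either, at -0.86. With the sum of counts as library size, the calls of novel_mir_245 (-1.04) and oar-miR-194 (-1.13) in CE against DU were kept. With clean reads, oar-miR-194 kept its call, at -1.01. Without oar-miR-143, the summed miR-194 rows in CO against DU fell just short, at -0.98. Per miR-200 read, oar-miR-194 in CO against DU was called at -1.02, and CE against CO changed sign for oar-miR-194 (0.16) and the sum (0.044). With nested rows added, which makes each miR-194 row the sum of both, oar-miR-194 in CO against DU was called at -1.43 and novel_mir_175 in CE against CO was not, at -0.61. The edgeR exact test at an assumed coefficient of variation between replicates of 0.2 lost oar-miR-194 (-1.09) and novel_mir_245 (-1.003) in CE against DU, as did a coefficient of 0.4. With 0.4, novel_mir_175 (-3.84) and novel_mir_174 (-3.52) in CO against DU and the same rows (-3.01 and -3.47) in CE against CO were also lost. Rows called numbered 127 of 348 tested in CE against DU, 123 of 363 in CO against DU, and 74 of 326 in CE against CO. They numbered 48 of 274, 35 of 277, and 15 of 278 with at least 10 reads in both libraries as the only filter, which removes rows at 0 in one library. Over the same rows as the main calls, they numbered 38, 40, and 31 with a coefficient of 0.4, and 76 in CE against DU with 0.2. The edgeR exact test was not run for the sum. No paired analysis was possible because each segment has 1 library. The cause of these changes beyond the construction of each alternative was not tested. Depth limits none of the members with reads, and the lack of replicates limits all of them.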
